A study of Mus musculus with 12 samples.

Results

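The 41 genes described here encode the enzymes and regulators that remove superoxide and peroxides and keep thioredoxin and glutathione reduced. They were chosen by gene symbol from a list, among the 18929 genes listed in either of the deposited tables of read counts. The list was drawn up with earlier results of these data known, and the rule itself uses no measured value. Of the 41, 40 were listed in the table of the Hdac1 experiment and 39 in that of the Hdac2 experiment, since Gpx7 was in neither and Gpx8 in the former alone. RNA was sequenced from murine jejunal enteroids, which are epithelial cultures grown in Matrigel from intestinal crypts, after 5 days in culture. The 12 libraries comprised 4 from control, 4 from Hdac1-deficient and 4 from Hdac2-deficient enteroids. Mice with floxed Hdac1 or Hdac2 alleles had been crossed with a villin-Cre line on a mixed C57BL/6J, 129SV and CD1 background, so that Cre is driven by a promoter active in intestinal epithelial cells. The control enteroids are called both villin-Cre control and wild-type by the study, so whether they carried Cre is not settled here. All groups were grown in the same medium with EGF, noggin, R-spondin 1 and N-acetylcysteine, a cysteine donor that cells can use for glutathione. As the methods read, crypts were taken from 1 mouse of each genotype, so a difference between genotypes and one between mice or the lines grown from them cannot be told apart. The p-values measure only the spread between libraries of a group.

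Superoxide dismutases convert superoxide to hydrogen peroxide, and catalase, glutathione peroxidases and peroxiredoxins break the peroxide down. Glutathione peroxidases draw their electrons from glutathione and peroxiredoxins from thioredoxin, and both carriers are returned to the reduced state by reductases that spend NADPH, for which the pentose phosphate pathway is a main source. Many of these genes are known targets of the transcription factor NRF2, encoded by Nfe2l2, which binds antioxidant response elements and is held back by KEAP1 until oxidants or electrophiles modify that sensor. In the small intestine, villus enterocytes also carry gamma-glutamyl transferase on the brush border, where it begins the breakdown of extracellular glutathione.

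Library totals ran from 20693200 to 30658628 reads assigned to genes, so that 3 counts correspond to 0.0979 to 0.145 CPM (read counts scaled to a common library size with TMM factors). Hdac1 averaged 4.23 CPM in Hdac1-deficient against 90.6 CPM in control enteroids, and Hdac2 averaged 75.9 CPM in Hdac2-deficient against 137.0 CPM in control enteroids. The paper reports loss of each RNA and protein in its mutant by RT-PCR, Western blot and immunofluorescence. Counts per gene do not show which exons the remaining Hdac2 reads come from. Xist, the RNA that coats an inactive X, ran from 1.41 to 1.72 CPM in control libraries. It ran from 776 to 1076 CPM in Hdac1-deficient and from 495 to 676 CPM in Hdac2-deficient libraries. The paper does not state the sex of the mice. A sex difference between control and mutant lines could not be told apart from genotype in any comparison with control. Summed markers of intestinal epithelium lay between 6150 and 8000 CPM on average per group, whereas the 4 of 8 markers of mesenchyme, endothelium and leukocytes that were listed in both tables summed to at most 0.606 CPM. Control library 1 stood apart from the other controls, with a chi-square per gene of 3.65 to 8.18 against each of them and of 1.52 to 3.05 among the other 3. It held the highest control value for 31 of the 37 members tested, compared with 35.5% of all 13851 genes tested in both mutants. Values without it are given for the counts of members and for Prdx5, Txn2, Glrx5 and Sod1. Other members may have been moved by it too. Mutant libraries were also uneven over the 37 members. Hdac2-deficient library 3 held the lowest value of its group for 21 of them (26.5% of all genes). Hdac1-deficient library 4 held the highest value of its group for 18 (28.1%), and Hdac1-deficient library 1 the lowest for 17 (23.5%).

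Per kilobase of transcript, Txn1 had the highest mean level in control enteroids at 736 CPM per kilobase, followed by Sod1 at 582, Prdx1 at 395, Taldo1 at 369, Tkt at 319.9, Gpx1 at 273 and Gpx2 at 257 CPM per kilobase. The cytosolic or main member of a family was thus more abundant than its relatives in several families: Txn1 over Txn2 at 78.6, Txnrd1 at 127 over Txnrd2 at 10.3 and Txnrd3 at 6.36, and Sod1 over Sod2 at 17.2 CPM per kilobase. These levels depend on the length used, that of the longest protein-coding transcript, which is 641 bases for Sod1 and 5861 bases for Sod2. In CPM alone, Sod1 averaged 373 and Sod2 averaged 101 in control. Hmox1, an inducible enzyme, was among the lowest tested members at 3.75 CPM per kilobase in control. Sod3, Gpx3 and Gpx8 were below 0.05 CPM per kilobase in control and were too low to be tested against it.

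**Figure D1:**
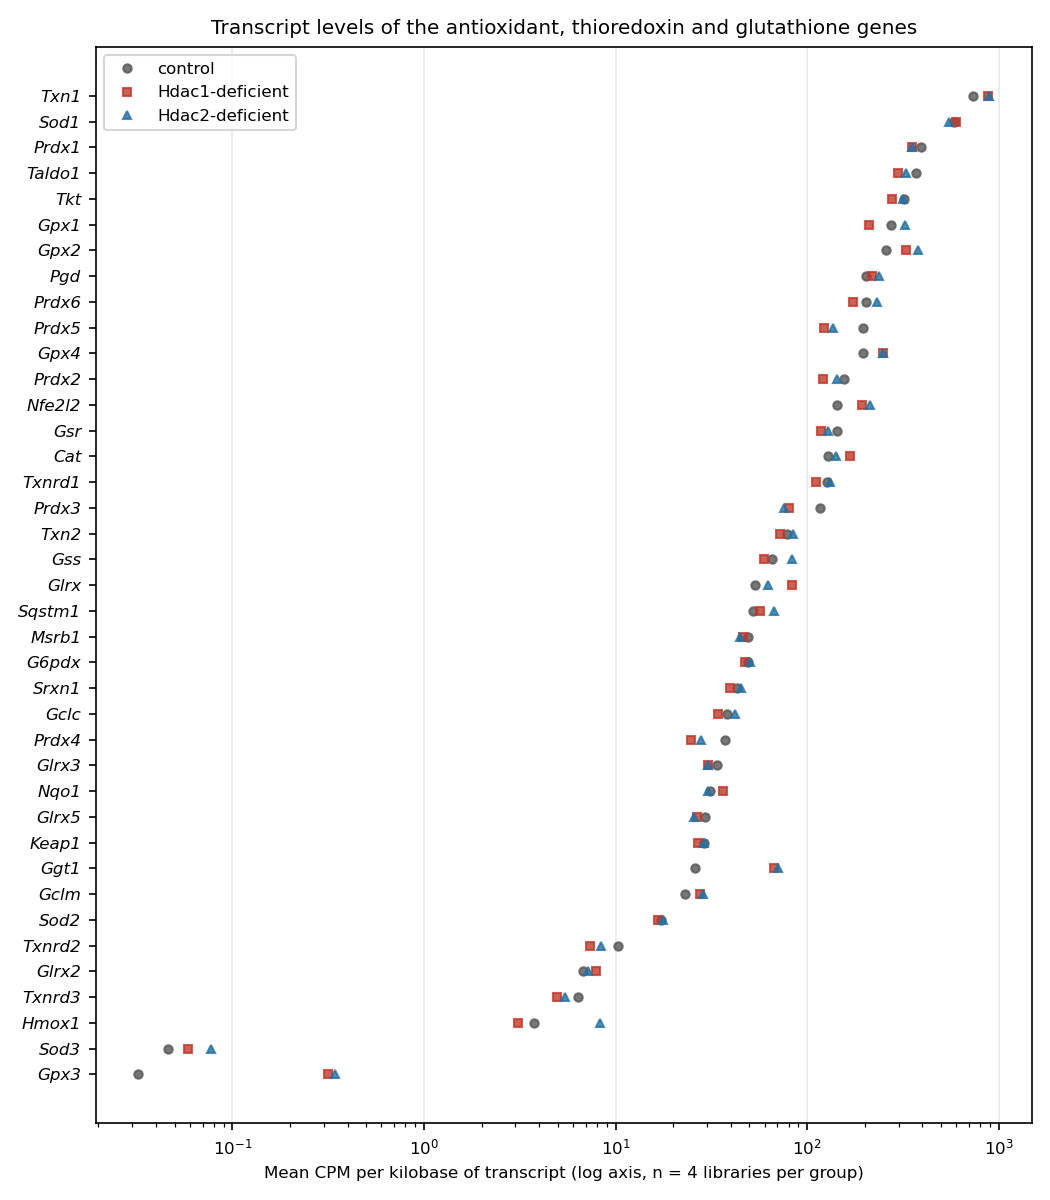
Mean CPM per kilobase of transcript (log axis) of the 39 members listed in both tables, ordered by the control level, with n = 4 libraries per group shown as circles for control, squares for Hdac1-deficient and triangles for Hdac2-deficient enteroids. The group means of most members lie close together next to the range from 0.0323 (Gpx3) to 736 CPM per kilobase (Txn1) in control, while Ggt1, Hmox1 and Gpx3 show the widest gaps between groups.

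Changes were frequent and mostly small. In Hdac1-deficient enteroids 32 of the 37 tested members (86.5%) passed an adjusted p of 0.05 against control, 12 higher and 20 lower, and of all 14246 genes tested 64.6% passed (32.7% higher and 31.9% lower). In Hdac2-deficient enteroids 29 of 37 (78.4%) passed, 17 higher and 12 lower, against 62.3% of the 14007 genes tested (31.4% higher and 30.9% lower). The members were more abundant than most genes, with a median log2 CPM of 7.20 and 7.18 in these 2 fits, against 4.66 and 4.70 over all tested genes, and the part of abundance in the share that passed was not tested. The median log2 fold change of the members was -0.10 in Hdac1-deficient enteroids and 0.06 in those lacking Hdac2, next to -0.0040 and -0.0036 over all tested genes. Past 2-fold, Ggt1 alone was called in Hdac1-deficient enteroids and Ggt1 and Hmox1 in those lacking Hdac2, all of them higher, where 6.87% and 5.45% of all genes were called higher and 3.71% and 2.84% lower. Libraries of the mutant and control did not overlap for 28 of 37 members in the Hdac1 comparison (58.5% of all genes) and for 26 of 37 in the Hdac2 comparison (56.0%). Without control library 1, 14 members passed higher and 18 lower in Hdac1-deficient enteroids, and 18 and 12 in those lacking Hdac2. Gpx3, just too low for the test, entered it and was called past 2-fold in Hdac1-deficient enteroids when any 1 control library or Hdac1-deficient library 4 was left out, which made 2 members in place of 1.

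Reads of some members may not be theirs alone. Near-identical pseudogene copies were found for 7 members (Glrx3, Gpx2, Gpx4, Prdx1, Prdx2, Sod1 and Txn1), and where a copy was listed it reached at most 3.25 CPM. Exons of Prdx2, Prdx5, Txnrd2, Gclm, Gss, G6pdx, Keap1 and Sqstm1 overlap those of genes on the opposite strand, and although the library kit keeps strand, the strand setting of the counting is not given in the sources used here. Gclm also shares 244 exon bases with Gm6061 on the same strand, which no strand setting separates.

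Read across both comparisons, which share their control libraries, 10 members passed higher in both mutants (Cat, Gpx2, Gpx4, Txn1, Gclm, Ggt1, Glrx, Pgd, Nfe2l2 and Sqstm1) and 11 passed lower in both (Prdx1, Prdx2, Prdx3, Prdx4, Prdx5, Txnrd2, Txnrd3, Gsr, Glrx3, Glrx5 and Taldo1). Another 6 (Gpx1, Prdx6, Srxn1, Txn2, Gclc and Gss) passed lower in Hdac1-deficient enteroids and higher in those lacking Hdac2, and none passed in the reverse arrangement. Txnrd1, Glrx2, Tkt, Keap1 and Nqo1 passed in the Hdac1 comparison alone, Msrb1 and Hmox1 in the Hdac2 comparison alone, and Sod1, Sod2 and G6pdx in neither.

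**Figure D2:**
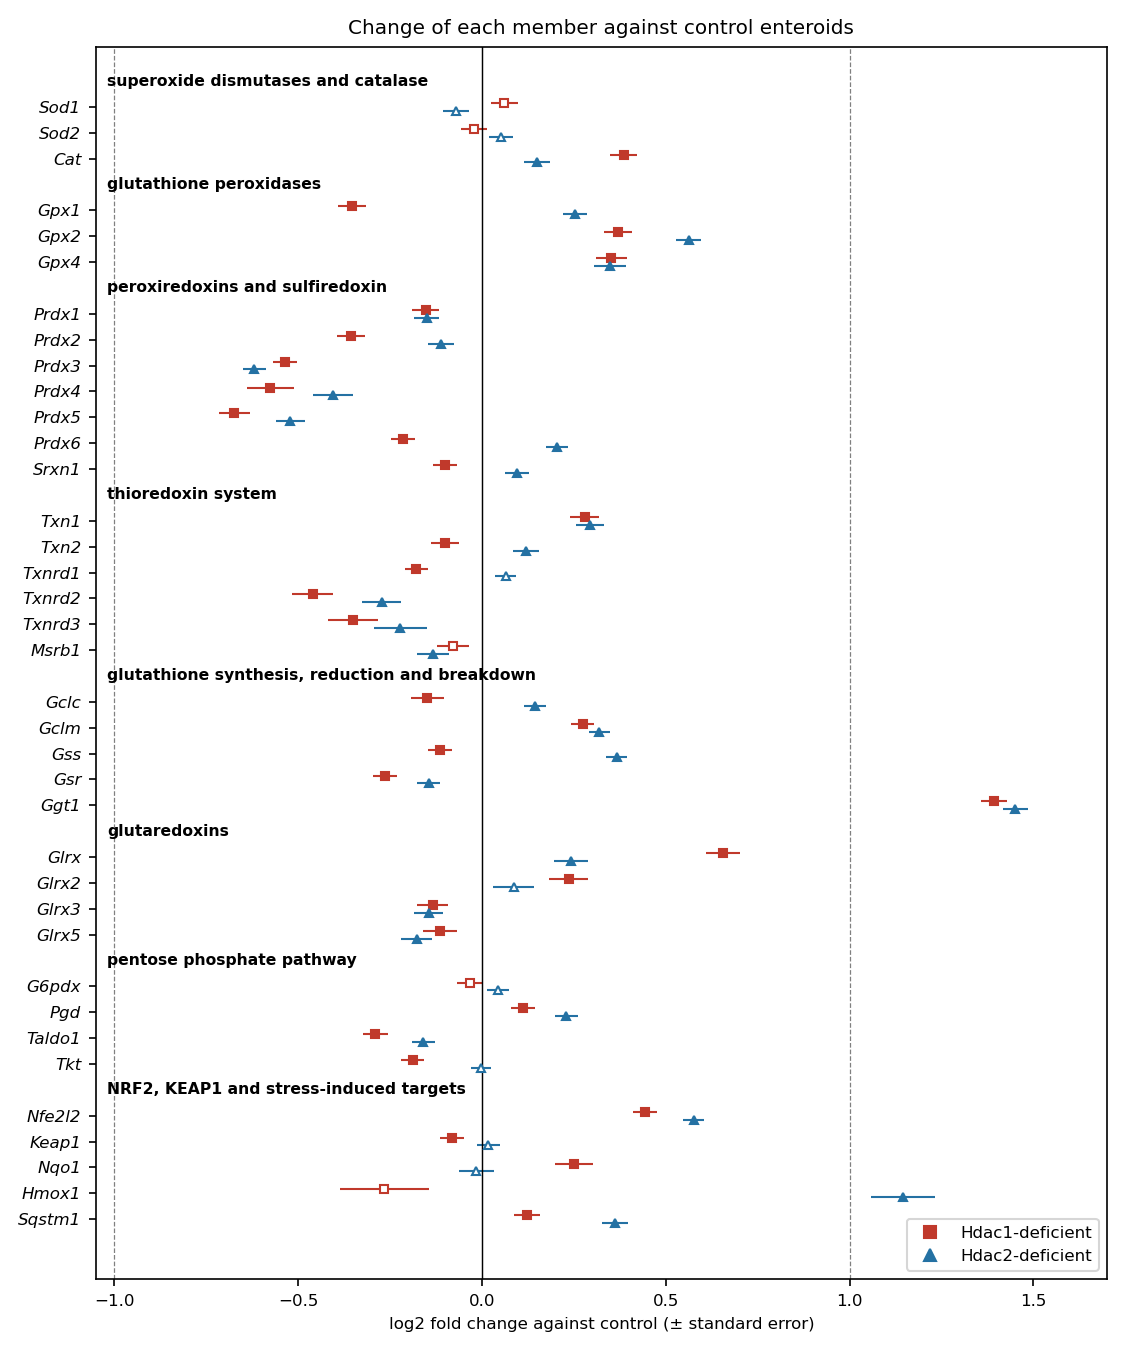
Log2 fold change against control (horizontal axis, bars are standard errors) of the 37 tested members by role, as squares for Hdac1-deficient and triangles for Hdac2-deficient enteroids, each from 4 mutant and 4 control libraries. Filled symbols passed an adjusted p of 0.05 in edgeR's test, and beyond the dashed lines at 2-fold lie Ggt1 in both mutants (1.39 and 1.45) and Hmox1 in Hdac2-deficient enteroids (1.15).

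The transcript of the regulator itself rose in both mutants, and NRF2 protein and activity are not measured by these libraries. Nfe2l2 (ENSMUSG00000015839, chr2:75675513-75704641, minus strand, GRCm38 as for all positions here) was counted at 362, 354, 353 and 353 CPM in control libraries 1 to 4, 474, 462, 473 and 506 CPM in the Hdac1-deficient libraries and 549, 519.8, 516 and 520.0 CPM in the Hdac2-deficient libraries. Each mutant library was above each control library, and the Hdac2-deficient libraries were above the Hdac1-deficient ones. The log2 fold change was 0.44 (SE 0.03, adjusted p = 3.8e-10) in Hdac1-deficient and 0.58 (SE 0.03, adjusted p = 2.5e-13) in Hdac2-deficient enteroids. Keap1, which encodes the adaptor that marks NRF2 for degradation, averaged 104 CPM in control, 97.8 CPM without Hdac1 and 105 CPM without Hdac2. It passed lower in Hdac1-deficient enteroids by a small step of -0.08 (SE 0.03, adjusted p = 0.039), a call that was lost in 8 alternative settings, a stricter adjusted p of 0.01 included, while its value in Hdac2-deficient enteroids was 0.02 (SE 0.03, adjusted p = 0.64). Sqstm1, encoding p62, a receptor of selective autophagy that binds KEAP1, rose from 140.1 ± 7.16 CPM to 151 ± 1.09 CPM without Hdac1 and to 179 ± 6.70 CPM without Hdac2 (SD, n = 4), at log2 fold changes of 0.12 and 0.36. Its Hdac1-deficient libraries overlapped the control range through control library 1, at 150.4 CPM.

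Because the members include many NRF2 targets that moved in different directions, their promoters were searched for the core of the antioxidant response element, TGACNNNGC, on both strands, from 250 bases before to 50 bases after the start site (RefSeq promoters on GRCm38.p6; a match can overlap an AP-1 type site such as TGANTCA, which was not searched). It was present in 9 of the 36 members with a promoter in the table (25.0%) and in 14% of the 27025 genes (12.4% of 32851 promoters), and no promoter was at hand for Sod3, Prdx6, Gclc, Gsr and Hmox1. Of the 9, Gclm, Ggt1, Pgd and Nfe2l2 were higher in both mutants, Prdx1 was lower in both, Srxn1 was lower in Hdac1-deficient enteroids and higher in those lacking Hdac2, Txnrd1 passed in the Hdac1 comparison alone, and Sod1 and G6pdx in neither. The 250 bases before the start site are given for the regulator, for Gclm and Ggt1, which rose, and for Prdx1, which fell, in the direction of the gene and with the match in capitals (GCNNNGTCA where it lies on the opposite strand).
Nfe2l2 promoter, chr2:75704664-75704913, minus strand: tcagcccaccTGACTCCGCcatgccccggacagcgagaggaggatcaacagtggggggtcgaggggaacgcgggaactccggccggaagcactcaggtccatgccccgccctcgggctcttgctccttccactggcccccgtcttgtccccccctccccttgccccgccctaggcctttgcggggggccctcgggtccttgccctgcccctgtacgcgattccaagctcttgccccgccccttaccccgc
Gclm promoter, chr3:122245307-122245556, plus strand: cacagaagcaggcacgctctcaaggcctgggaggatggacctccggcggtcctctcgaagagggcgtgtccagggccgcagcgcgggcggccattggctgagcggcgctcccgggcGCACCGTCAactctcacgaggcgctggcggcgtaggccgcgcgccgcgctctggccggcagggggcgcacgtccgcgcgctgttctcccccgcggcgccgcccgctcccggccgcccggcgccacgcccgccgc
Ggt1 promoter, chr10:75571310-75571559, plus strand: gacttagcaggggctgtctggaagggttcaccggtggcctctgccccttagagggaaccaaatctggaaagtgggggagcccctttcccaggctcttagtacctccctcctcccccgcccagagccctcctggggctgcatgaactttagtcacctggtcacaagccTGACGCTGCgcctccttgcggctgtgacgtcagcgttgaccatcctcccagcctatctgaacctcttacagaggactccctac
Prdx1 promoter, chr4:116685349-116685598, plus strand: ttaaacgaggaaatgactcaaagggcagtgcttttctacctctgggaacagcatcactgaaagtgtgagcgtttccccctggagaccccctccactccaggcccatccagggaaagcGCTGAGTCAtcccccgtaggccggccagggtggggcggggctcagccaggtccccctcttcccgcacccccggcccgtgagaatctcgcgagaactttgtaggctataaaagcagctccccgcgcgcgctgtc
Ggt1 has several promoters, and 2 others also held a match. The match is a description of these letters, and binding was not measured.

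Among the NRF2 targets best known for induction by stress, Hmox1, which encodes heme oxygenase 1, showed the widest difference between the mutants of all tested members. Hmox1 (ENSMUSG00000005413, chr8:75093621-75100589, plus strand) was counted at 5.63, 5.55, 6.40 and 5.93 CPM in control libraries 1 to 4, 5.07, 3.85, 4.36 and 6.20 CPM in the Hdac1-deficient libraries and 11.2, 12.4, 14.2 and 14.1 CPM in the Hdac2-deficient libraries. All Hdac2-deficient libraries lay above all others, and the control and Hdac1-deficient ranges overlapped. Hmox1 was 2.21-fold higher in Hdac2-deficient enteroids than in control, with a log2 fold change of 1.15 (SE 0.09, adjusted p = 3e-10). In Hdac1-deficient enteroids it was -0.27 (SE 0.12, adjusted p = 0.06), a value that passed in 3 alternative settings, without Hdac1-deficient library 4 (-0.40, adjusted p = 0.0039), with the replicate number as a block (-0.27, 0.043) and with all 12 libraries in 1 fit (-0.28, 0.0496). These values rest on 119 to 193 reads per library in control and Hdac1-deficient and on 293 to 326 reads in Hdac2-deficient enteroids. Nqo1, a quinone reductase often read as an indicator of NRF2 activity, moved otherwise. It rose in Hdac1-deficient enteroids, from 48.1 ± 2.17 to 56.7 ± 4.55 CPM (SD, n = 4) with a log2 fold change of 0.25 (SE 0.05, adjusted p = 0.00034), and averaged 47.2 ± 3.06 CPM in Hdac2-deficient enteroids, a log2 fold change of -0.01 (SE 0.05, adjusted p = 0.8). Nqo1 was therefore higher in Hdac1-deficient enteroids and Hmox1 in those lacking Hdac2 when the mutants were compared directly, by 0.26 and -1.41 on the log2 scale of Hdac1-deficient minus Hdac2-deficient (adjusted p = 0.00036 and 2.7e-10).

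Of 14 further NRF2 target enzymes tested, from a list of the pathway's other genes, 5 passed higher and 5 lower in Hdac1-deficient enteroids, and 8 passed higher and 2 lower in those lacking Hdac2. Of all genes tested, 32.7% passed higher and 31.9% lower without Hdac1, and 31.4% and 30.9% without Hdac2. The counts for Hdac1 are near this background. The same shares stand beside the counts of the pathway's other gene groups given here. Cbr3, a carbonyl reductase gene, rose 5.04-fold in Hdac1-deficient enteroids, from 5.46 ± 0.539 to 27.4 ± 1.90 CPM (SD, n = 4), and averaged 5.56 ± 0.600 CPM in Hdac2-deficient enteroids. Akr1b8, an aldo-keto reductase gene, rose 2.39-fold in Hdac2-deficient enteroids, from 17.5 ± 0.758 to 41.6 ± 2.51 CPM, and averaged 16.1 ± 1.5 CPM in Hdac1-deficient enteroids. Both differed between the mutants in the direct test, by 2.3 and -1.37 on the log2 scale (adjusted p = 1.6e-18 and 2.4e-16). Osgin1, an oxidative stress-induced growth inhibitor gene, rose in both, at log2 fold changes of 1.10 and 0.39. Among the 8 tested partners and sensors of NRF2, 2 passed higher and 3 lower in Hdac1-deficient enteroids, and 4 passed higher and none lower in those lacking Hdac2.

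Glutathione is made from glutamate, cysteine and glycine by glutamate-cysteine ligase, whose catalytic and modifier subunits are encoded by Gclc and Gclm, and by glutathione synthetase, encoded by Gss. In Hdac2-deficient enteroids the 3 synthesis genes all rose, by 0.14, 0.32 and 0.37 on the log2 scale. In Hdac1-deficient enteroids Gclm rose by 0.27 while Gclc and Gss passed lower, at -0.15 and -0.11. Gss averaged 128 ± 1.61 CPM (SD, n = 4) in control, 117 ± 3.44 CPM without Hdac1 and 164 ± 2.06 CPM without Hdac2, and the 3 groups did not overlap. Gclc averaged 131 ± 3.06, 117 ± 9.12 and 143 ± 2.18 CPM, and Hdac1-deficient library 4, at 129.8 CPM, lay within the control range. Gclm averaged 129 ± 2.52, 155 ± 3.32 and 160.2 ± 0.988 CPM, with every mutant library above every control library.

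Gsr, encoding glutathione reductase, which regenerates glutathione from its disulfide with NADPH, was the most abundant gene of this group per kilobase. Gsr (ENSMUSG00000031584, chr8:33652523-33698163, plus strand) was counted at 395, 387, 380.1 and 371 CPM in control libraries 1 to 4, 305, 317, 325 and 317 CPM in the Hdac1-deficient libraries and 333, 359.7, 348 and 336 CPM in the Hdac2-deficient libraries. Control libraries were highest and Hdac1-deficient libraries lowest, without overlap between the 3 groups. It fell by 0.26 on the log2 scale in Hdac1-deficient enteroids and by 0.14 in those lacking Hdac2 (adjusted p = 5.4e-07 and 0.00039).

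Ggt1, encoding gamma-glutamyl transferase 1, had the strongest increase of all tested members in both mutants. Ggt1 (ENSMUSG00000006345, chr10:75561604-75586200, plus strand) was counted at 58.5, 54.1, 57.3 and 54.2 CPM in control libraries 1 to 4, 144, 147, 145 and 147 CPM in the Hdac1-deficient libraries and 149, 152, 152 and 155 CPM in the Hdac2-deficient libraries. The mutant libraries were all far above the control range, and Ggt1 was 2.63-fold higher in Hdac1-deficient enteroids and 2.73-fold higher in those lacking Hdac2. The log2 fold changes were 1.39 (SE 0.04, adjusted p = 2.8e-17) and 1.45 (SE 0.03, adjusted p = 7.2e-19). Both stayed near these values, between 1.37 and 1.41 and between 1.42 and 1.47 over all alternative settings. The mutants did not pass against each other, with a difference of -0.06 (SE 0.03, adjusted p = 0.12), although their 4 libraries each did not overlap. Summed enterocyte markers averaged 9437 CPM (range 9161 to 9710.1) in control. They averaged 19245 CPM (17973 to 20489) in Hdac1-deficient enteroids and 15146 CPM (14358 to 16185) in those lacking Hdac2, with 10 of 10 markers higher in both mutants. Between the mutants, 7 of 10 enterocyte markers passed higher and 1 lower in Hdac1-deficient enteroids, where Ggt1 did not pass. Summed stem cell markers were 4777, 3122 and 2675 CPM in the same order, with 6 of 7 lower in each mutant, and Paneth cell markers 2307, 3244 and 3446 CPM, with 2 of 7 higher and 1 lower in Hdac1-deficient enteroids and 5 of 7 higher in those lacking Hdac2. Goblet cell markers summed to 1750.2, 1771 and 2762 CPM, with 3 of 7 higher and 1 lower without Hdac1, 6 of 7 higher without Hdac2, and 5 of 7 lower in Hdac1-deficient enteroids when the mutants were compared directly. In such bulk libraries fewer cells of a type and less RNA per cell cannot be told apart, and the part of cell type shares in Ggt1 or any other member was not tested.

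The other genes of glutathione breakdown and cysteine supply were read from the same pathway list. Dpep1, a brush border dipeptidase gene that acts after gamma-glutamyl transferase, rose from 37.4 ± 1.65 CPM to 89.7 ± 1.86 CPM without Hdac1 and to 65.0 ± 2.00 CPM without Hdac2 (SD, n = 4), or 2.42-fold and 1.75-fold. Oplah, encoding the 5-oxoprolinase that returns 5-oxoproline to glutamate, rose 8.25-fold and 9.44-fold, from 1.96 ± 0.225 to 16.0 ± 1.05 and 18.4 ± 2.05 CPM. Chac1, encoding a cytosolic enzyme that degrades glutathione, went the other way in Hdac1-deficient enteroids, where it fell from 20.6 ± 1.52 to 8.11 ± 0.618 CPM, while it passed slightly higher in Hdac2-deficient enteroids at 23.4 ± 1.22 CPM. Over the 11 tested genes of glutathione turnover and transport, 4 passed higher and 5 lower in Hdac1-deficient enteroids and 6 higher and 2 lower in those lacking Hdac2.

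Some transcripts for cysteine supply also differed between the mutants. Slc7a11, encoding the cystine transporter xCT, was counted at 19.5, 26.7, 23.2 and 20.2 CPM in control libraries 1 to 4, 6.38, 6.35, 7.60 and 7.62 CPM in the Hdac1-deficient libraries and 27.8, 36.4, 34.2 and 29.4 CPM in the Hdac2-deficient libraries. Every Hdac1-deficient library lay below every other library, and the Hdac2-deficient libraries lay above the controls. It was 3.18-fold lower in Hdac1-deficient enteroids and 1.43-fold higher in Hdac2-deficient enteroids, and the mutants differed by -2.19 (SE 0.12, adjusted p = 4.1e-09). Slc1a4, encoding a carrier of alanine, serine and cysteine, fell in both, from 185 ± 10.9 CPM to 72.7 ± 3.31 and 100.4 ± 5.65 CPM. Cbs, which encodes the first enzyme of transsulfuration from homocysteine to cysteine, rose 3.13-fold in Hdac1-deficient enteroids, from 5.38 ± 0.372 to 16.7 ± 0.759 CPM, and 1.18-fold in Hdac2-deficient enteroids, to 6.32 ± 0.598 CPM. Slc7a9 and Slc3a1, of the same group but below 2-fold, rose in both mutants. Slc7a9 went from 41.7 ± 1.27 CPM to 71.8 ± 4.39 CPM without Hdac1 and 77.8 ± 2.53 CPM without Hdac2. Slc3a1 went from 154 ± 3.31 CPM to 220 ± 15.5 and 211 ± 3.89 CPM. Of the 9 genes of cystine import and cysteine supply, 3 passed higher and 6 lower in Hdac1-deficient enteroids, and 5 higher and 2 lower in those lacking Hdac2.

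**Figure D3:**
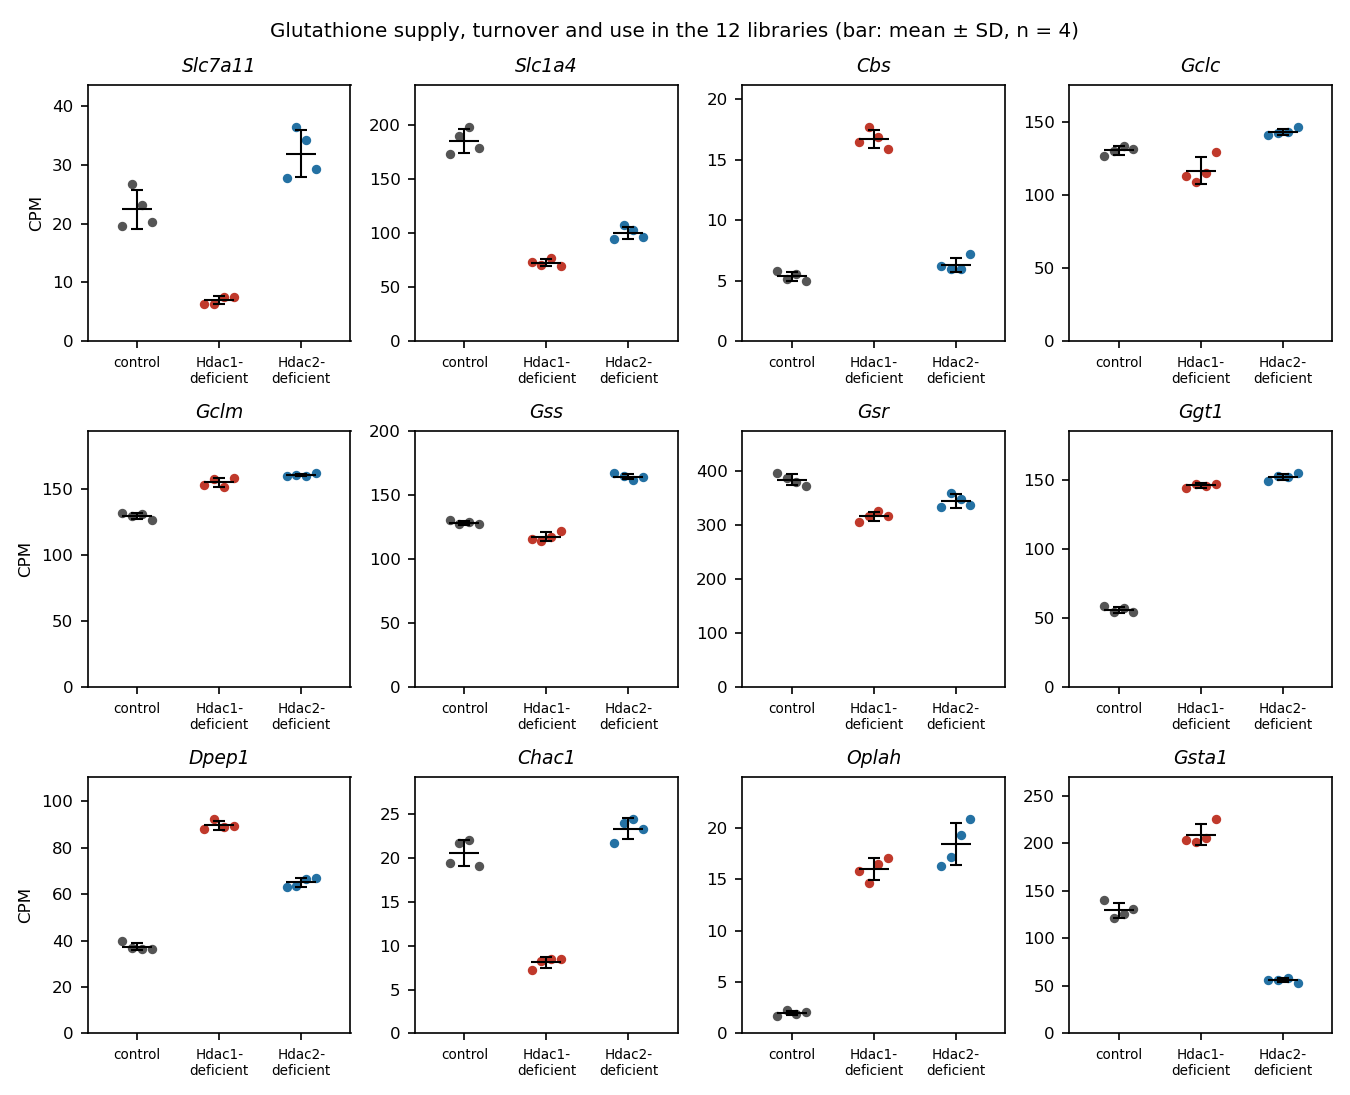
CPM in each of the 12 libraries (points, left to right replicates 1 to 4; bars are mean ± SD, n = 4, and the axes start at 0) of genes of cysteine supply (Slc7a11, Slc1a4, Cbs), glutathione synthesis and reduction (Gclc, Gclm, Gss, Gsr), breakdown (Ggt1, Dpep1, Chac1, Oplah) and use (Gsta1). Ggt1, Dpep1 and Oplah are above control in both mutants, whereas Slc7a11 and Chac1 are below control in Hdac1-deficient enteroids only and Gsta1 is below it in Hdac2-deficient enteroids only.

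Glutathione transferases, which couple glutathione to electrophiles, were mixed, with 8 of 22 tested genes passing higher and 11 lower in Hdac1-deficient enteroids, and 11 of 23 higher and 6 lower in those lacking Hdac2. Gsta1 rose from a control mean of 129 ± 7.97 CPM (SD, n = 4) to 209 ± 11 CPM in Hdac1-deficient enteroids and fell to 55.7 ± 2.10 CPM in Hdac2-deficient enteroids, so that the mutants differed 3.75-fold. Gstp2 and Mgst2 rose in both, 3.31-fold and 2.64-fold in Hdac1-deficient enteroids and 1.63-fold and 1.88-fold in those lacking Hdac2. Gstp2 averaged 7.61, 24.9 and 12.3 CPM in control, Hdac1-deficient and Hdac2-deficient enteroids. Gstp1, far more abundant and below 2-fold, fell in both mutants, from 802 ± 26.5 CPM to 448 ± 4.26 and 459 ± 15.3 CPM. Members of the Gsta and Gstp families are close in sequence, and how the counting divided reads between such genes is not given in the sources used here. Gstp1, Gstp2 and some other genes of the pathway counts lie on chromosome 19, whose protein-coding genes were mostly lower in both mutants. The part of this shift in their values and in the counts was not tested.

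Among the glutathione peroxidases, which reduce hydrogen peroxide and lipid peroxides, Gpx1 and Gpx2 were the most abundant and behaved differently. Gpx1 (ENSMUSG00000063856, chr9:108338903-108340343, plus strand), encoding the cytosolic enzyme, was counted at 308, 281, 283 and 299 CPM in control libraries 1 to 4, 215, 226, 226 and 239 CPM in the Hdac1-deficient libraries and 358, 341, 336 and 349 CPM in the Hdac2-deficient libraries. The Hdac1-deficient libraries were lowest and the Hdac2-deficient libraries highest, and no groups overlapped. Gpx1 fell 1.28-fold in Hdac1-deficient enteroids and rose 1.19-fold in those lacking Hdac2, at log2 fold changes of -0.35 (SE 0.04, adjusted p = 8.9e-08) and 0.25 (SE 0.03, adjusted p = 9.2e-07), and the mutants differed 1.53-fold. Gpx2, which encodes the gastrointestinal peroxidase of the epithelium, rose in both, from 275 ± 15.2 CPM to 351 ± 10.3 CPM without Hdac1 and to 402 ± 11.4 CPM without Hdac2 (SD, n = 4). Gpx4, encoding the peroxidase that acts on lipid hydroperoxides in membranes and guards against ferroptosis, rose by 0.35 and 0.35 on the log2 scale, from 196 ± 13.9 to 247 ± 6.77 and 247 ± 10.4 CPM, and its difference between the mutants was 0.00 (SE 0.04, adjusted p = 0.96). With Gpx2 above Gpx1 per kilobase in both mutants (329 against 211 and 377 against 323 CPM per kilobase) and below it in control (257 against 273), the order of these 2 genes changed.

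The remaining peroxidases of this family were at or near the limit of detection. Gpx3, the secreted plasma form, had 1, 3, 2 and 0 reads in the control libraries, 13, 22, 15 and 9 reads in the Hdac1-deficient libraries and 8, 18, 12 and 14 reads in the Hdac2-deficient libraries. Every mutant library held more reads than every control library, and the ratio of mutant to control over the summed reads was 9.54 (95% exact interval 4.13 to 27.1, counting error only) and 10.1 (4.33 to 28.7). With no filter on low counts its adjusted p was 9.8e-06 and 6.6e-06, and the mutants did not pass against each other (adjusted p = 0.86). Gpx8, an endoplasmic reticulum form, had 3 reads in all control and 14 in all Hdac1-deficient libraries, a ratio of 4.53 (95% exact interval 1.26 to 24.6), and Gpx7 was not listed.

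The peroxiredoxins, which reduce peroxides with electrons from thioredoxin, had one direction in Hdac1-deficient enteroids, where all 7 genes of the group, sulfiredoxin included, passed lower, beside 31.9% of all genes tested. Their median was -0.36 on the log2 scale, beside -0.0040 over all genes. In Hdac2-deficient enteroids Prdx1 to Prdx5 passed lower and Prdx6 and Srxn1 higher, and the median was -0.15. Prdx1 (ENSMUSG00000028691, chr4:116685544-116700822, plus strand), the most abundant of them per kilobase and a cytosolic enzyme, was counted at 960.1, 882, 867 and 918 CPM in control libraries 1 to 4, 812, 825, 783 and 810.3 CPM in the Hdac1-deficient libraries and 826, 822, 799.5 and 795 CPM in the Hdac2-deficient libraries. All control libraries were above all mutant libraries, and the mutants overlapped. Prdx1 fell by 0.15 and 0.15 on the log2 scale (adjusted p = 0.001 and 0.00047). Prdx2, another cytosolic form, fell by 0.36 in Hdac1-deficient enteroids and by 0.11 in those lacking Hdac2, from 252 ± 14.4 CPM (SD, n = 4) to 195 ± 4.61 and 232 ± 6.12 CPM.

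The mitochondrial peroxiredoxins fell in both mutants. Prdx3 (ENSMUSG00000024997, chr19:60864051-60874556, minus strand), found in mitochondria, was counted at 175, 172, 169.9 and 177 CPM in control libraries 1 to 4, 118, 120.4, 122 and 114 CPM in the Hdac1-deficient libraries and 119, 111, 108 and 110.4 CPM in the Hdac2-deficient libraries. The mutant libraries overlapped each other and were all well below the controls. Prdx3 was 1.45-fold lower in Hdac1-deficient enteroids and 1.54-fold lower in those lacking Hdac2, at log2 fold changes of -0.54 (SE 0.03, adjusted p = 2.4e-11) and -0.62 (SE 0.03, adjusted p = 6.5e-13). Prdx5 (ENSMUSG00000024953, chr19:6906697-6910106, minus strand), found in mitochondria, peroxisomes and the cytosol, was counted at 274, 237, 237 and 245 CPM in control libraries 1 to 4, 151, 159, 155 and 150.1 CPM in the Hdac1-deficient libraries and 171, 171, 168 and 176 CPM in the Hdac2-deficient libraries. Here no 2 groups overlapped, and the order from high to low was control, Hdac2-deficient and Hdac1-deficient. Prdx5 was 1.6-fold and 1.43-fold lower, at log2 fold changes of -0.67 (SE 0.04, adjusted p = 5.4e-11) and -0.52 (SE 0.04, adjusted p = 1.2e-09). Without control library 1, which was the highest for Prdx5, the 2 values were -0.63 and -0.47. Prdx3 and Prdx5 are the members on chromosome 19, whose protein-coding genes as a whole were lower in both mutants, with medians of -0.53 and -0.52 on the log2 scale against 0.01 and 0.02 on the other autosomes, and 75.8% and 77.9% of them passed lower. The part of this chromosome-wide shift in the values of both genes was not tested.

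Prdx4, encoding the form of the endoplasmic reticulum, fell from 36.8 ± 2.39 CPM to 24.4 ± 2.44 CPM without Hdac1 and to 27.6 ± 1.77 CPM without Hdac2 (SD, n = 4), or by 0.57 and 0.41 on the log2 scale. It lies on the X chromosome, whose protein-coding genes had median log2 fold changes of -0.02 and -0.04. Xist averaged 1.57 CPM in control, 917 CPM in Hdac1-deficient enteroids and 584 CPM in those lacking Hdac2. The part of this difference in the value of Prdx4 was not tested. Prdx6, which uses glutathione in place of thioredoxin, averaged 484 ± 18.2 CPM in control, 412 ± 6.74 CPM without Hdac1 and 553 ± 5.99 CPM without Hdac2, 3 ranges without overlap. Srxn1, the sulfiredoxin that repairs overoxidized peroxiredoxins, moved in the same sense but less, at log2 values of -0.10 and 0.09 (adjusted p = 0.014 and 0.016). The rise of Srxn1 in Hdac2-deficient enteroids did not pass with library size alone (adjusted p = 0.086), nor without control library 3 (0.089) or 4 (0.062) or Hdac2-deficient library 2 (0.072).

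**Figure D4:**
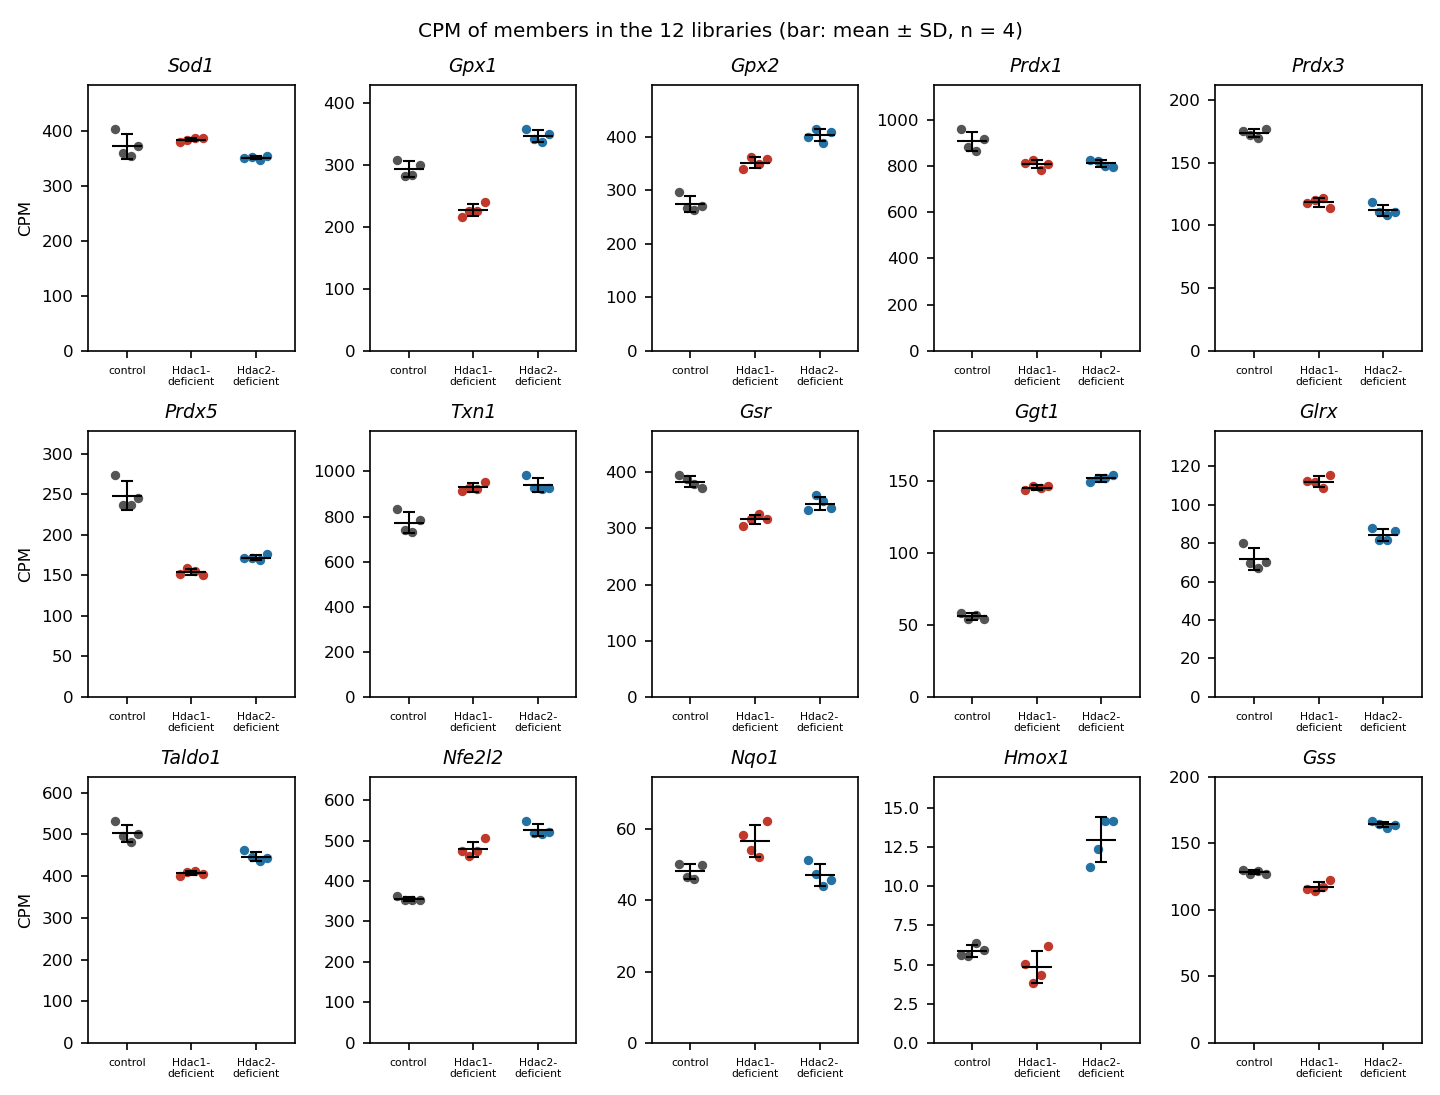
CPM in each of the 12 libraries for 15 members (points, left to right replicates 1 to 4; bars are mean ± SD, n = 4; the axes start at 0). Gpx1 and Gss lie below control in Hdac1-deficient enteroids and above it in those lacking Hdac2, Prdx3 and Prdx5 lie below it in both, Ggt1 and Nfe2l2 lie above it in both, and the highest control point of Sod1, Prdx1, Prdx5, Txn1 and Glrx is control library 1.

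Thioredoxin passes electrons from NADPH to peroxiredoxins and other targets, and it is reduced by thioredoxin reductases, which contain selenocysteine. Txn1 (ENSMUSG00000028367, chr4:57943373-57956411, minus strand), the cytosolic thioredoxin, was counted at 835, 740.4, 732 and 786 CPM in control libraries 1 to 4, 912, 928, 921 and 955 CPM in the Hdac1-deficient libraries and 985, 928, 924 and 924 CPM in the Hdac2-deficient libraries. All mutant libraries were above all control libraries, and the mutants overlapped. Its log2 fold changes were 0.28 (SE 0.04, adjusted p = 3.8e-06) and 0.29 (SE 0.04, adjusted p = 1.2e-06), and the mutants differed by -0.02 (SE 0.04, adjusted p = 0.76). Txn2, the mitochondrial thioredoxin, averaged 161 ± 9.21 CPM (SD, n = 4) in control, 149 ± 2.07 CPM without Hdac1 and 174 ± 2.94 CPM without Hdac2. Its decrease in Hdac1-deficient enteroids, -0.10 (SE 0.04, adjusted p = 0.024), did not pass without control library 1 (-0.06, adjusted p = 0.089) or without Hdac1-deficient library 4 (-0.09, adjusted p = 0.051). The reductases fell or did not pass. Txnrd1, the cytosolic form, fell by 0.18 in Hdac1-deficient enteroids and was 0.06 (SE 0.03, adjusted p = 0.061) in Hdac2-deficient enteroids. Txnrd2, the mitochondrial form, fell by 0.46 and 0.27, and Txnrd3, which carries a glutaredoxin domain, by 0.35 and 0.22, the latter a call lost without Hdac2-deficient library 1 (adjusted p = 0.061). Msrb1, which encodes a methionine sulfoxide reductase recycled by thioredoxin, was -0.08 (SE 0.04, adjusted p = 0.12) in Hdac1-deficient enteroids and passed lower in those lacking Hdac2 at -0.13 (SE 0.04, adjusted p = 0.013), a call lost without Hdac2-deficient library 3 (adjusted p = 0.054) and at a stricter adjusted p of 0.01. In the pathway list, 2 of 10 tested thioredoxin-like and methionine sulfoxide reductase genes passed higher and 7 lower in Hdac1-deficient enteroids, and 3 of 9 higher and 4 lower in those lacking Hdac2. Msrb2, the mitochondrial reductase, was past 2-fold higher in Hdac1-deficient enteroids, with a control mean of 0.118 CPM against 1.18 CPM in Hdac1-deficient enteroids and 0.530 CPM in those lacking Hdac2, where it was too low to be tested against control.

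Glutaredoxins reverse the coupling of glutathione to protein thiols. Glrx (ENSMUSG00000021591, chr13:75839868-75850154, plus strand), the cytosolic form, was counted at 80.1, 69.9, 67.1 and 70.2 CPM in control libraries 1 to 4, 112, 112, 109 and 116 CPM in the Hdac1-deficient libraries and 87.7, 81.9, 81.6 and 86.2 CPM in the Hdac2-deficient libraries. The order from low to high was control, Hdac2-deficient and Hdac1-deficient, and no libraries overlapped between groups. Glrx was 1.57-fold higher in Hdac1-deficient enteroids, a log2 fold change of 0.66 (SE 0.05, adjusted p = 2.1e-10), and 1.18-fold higher in Hdac2-deficient enteroids, with 0.24 (SE 0.05, adjusted p = 0.00015). The mutants differed by 0.41 (SE 0.04, adjusted p = 1.7e-08). Glrx2, the mitochondrial form, rose in Hdac1-deficient enteroids by 0.24 and was 0.09 (SE 0.06, adjusted p = 0.18) in Hdac2-deficient enteroids. Glrx3 and Glrx5, which serve iron-sulfur cluster and iron handling, fell slightly in both mutants, by 0.13 and 0.11 in Hdac1-deficient enteroids and by 0.15 and 0.18 in those lacking Hdac2. The Glrx5 call in Hdac1-deficient enteroids was lost in 8 alternative settings, among them without control library 1 (-0.08, adjusted p = 0.12).

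Neither of the superoxide dismutases that could be tested passed against control. Sod1 (ENSMUSG00000022982, chr16:90220754-90226329, plus strand), the cytosolic copper and zinc enzyme, was counted at 405, 360.3, 355 and 373 CPM in control libraries 1 to 4, 381, 384, 388 and 388 CPM in the Hdac1-deficient libraries and 352, 354, 348 and 355 CPM in the Hdac2-deficient libraries. All Hdac1-deficient libraries lay within the control range, and 3 of the 4 Hdac2-deficient libraries lay just below it. Each Hdac1-deficient library was above each Hdac2-deficient one. Sod1 was 0.06 (SE 0.04, adjusted p = 0.16) in Hdac1-deficient and -0.07 (SE 0.03, adjusted p = 0.082) in Hdac2-deficient enteroids, and the mutants differed by 0.13 (SE 0.03, adjusted p = 0.0027). Without control library 1, Sod1 passed higher in Hdac1-deficient enteroids, at 0.10 (adjusted p = 0.0080), and in 5 alternative settings it passed lower in Hdac2-deficient enteroids. These were without control library 2 (-0.09, adjusted p = 0.043) or 3 (-0.10, 0.023), with library size alone (-0.10, 0.012), with TMM factors from genes outside chromosomes X, Y and 19 (-0.09, 0.040) and with all 12 libraries in 1 fit (-0.08, 0.043). Sod2, the mitochondrial manganese enzyme, averaged 101 ± 2.17, 98.2 ± 3.23 and 104 ± 2.38 CPM (SD, n = 4) in control, Hdac1-deficient and Hdac2-deficient enteroids and did not pass in either (adjusted p = 0.6 and 0.17). Sod3, the extracellular form, had 19 reads in all control, 26 in all Hdac1-deficient and 28 in all Hdac2-deficient libraries, and no difference was detectable at this depth (adjusted p = 0.51 and 0.15 with no filter). Cat, the peroxisomal catalase, rose from 337 ± 8.36 CPM to 435 ± 22 CPM without Hdac1 and to 371 ± 20.2 CPM without Hdac2, at log2 fold changes of 0.39 and 0.15 and a difference between the mutants of 0.23 (SE 0.04, adjusted p = 1.5e-05).

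In the pentose phosphate pathway, NADPH is formed by the dehydrogenases G6pdx and Pgd, and Taldo1 and Tkt connect the pathway back to glycolysis. Taldo1 (ENSMUSG00000025503, chr7:141392199-141402968, plus strand), the transaldolase, was counted at 532, 495, 483 and 500.0 CPM in control libraries 1 to 4, 401, 410.5, 412 and 405 CPM in the Hdac1-deficient libraries and 462, 445, 436 and 443 CPM in the Hdac2-deficient libraries. Control libraries were highest and Hdac1-deficient libraries lowest, with no overlap. Taldo1 fell by 0.29 and 0.16 on the log2 scale, while Tkt, the transketolase, fell by 0.19 in Hdac1-deficient enteroids and was -0.00 (SE 0.03, adjusted p = 0.94) in Hdac2-deficient enteroids. Of the NADPH-forming steps, Pgd rose by 0.11 and 0.23, from 451 ± 10.6 CPM (SD, n = 4) to 483 ± 15.1 and 525 ± 19.2 CPM, and G6pdx, on the X chromosome, did not pass in either mutant (-0.03 and 0.04, adjusted p = 0.43 and 0.19). Among 10 other genes of NADPH supply, 6 passed higher and 3 lower in Hdac1-deficient enteroids and 5 higher and 3 lower in those lacking Hdac2, and Me1, the cytosolic malic enzyme, rose 1.6-fold and 2.41-fold, from 88.7 ± 3.38 to 140.2 ± 5.41 and 212 ± 3.99 CPM.

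The direct comparison of the mutants asked where Hdac1-deficient and Hdac2-deficient enteroids differed. Here too genotype cannot be told apart from the mice or the lines grown from them. Of the 38 members tested in the fit of all 12 libraries, 5 were higher and 21 lower in Hdac1-deficient enteroids than in those lacking Hdac2, 68.4% in all, against 45.9% of the 14510 genes tested (22.3% higher and 23.7% lower). The median log2 difference of Hdac1-deficient minus Hdac2-deficient was -0.12 over the members and 0.01 over all genes tested. Hmox1 alone was past 2-fold, 2.66-fold lower in Hdac1-deficient enteroids, where 2.89% of all genes were past 2-fold lower and 2.74% higher. Libraries of the 2 mutants did not overlap for 26 of the 38 members, compared with 41.7% of all genes. The members higher in Hdac1-deficient enteroids were Glrx, Nqo1, Cat, Glrx2 and Sod1. By role, all 4 pentose phosphate genes, 5 of 7 peroxiredoxin and sulfiredoxin genes, 3 of 6 thioredoxin genes and 3 of 5 genes of glutathione synthesis and reduction passed lower in Hdac1-deficient enteroids, beside 23.7% of all genes, and no gene of these roles passed higher. These counts include G6pdx and Prdx4, whose direct calls (-0.08 and -0.17) were lost in 14 and 9 alternative settings, a stricter adjusted p of 0.01 included. Of the 5 genes of NRF2, KEAP1 and stress-induced targets, 4 passed lower and 1 higher. Of the 4 tested glutathione peroxidases, 2 passed lower and none higher. The other roles went the other way, with 2 of 4 glutaredoxins and 2 of 3 tested dismutase and catalase genes higher and none lower.

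The 6 members that passed in opposite directions against control all passed in the direct test as well. Opposite effects against shared controls make such a pass likely, so it is no separate support. Against control, the Hdac1 call of Txn2 was lost in 3 alternative settings. The calls of Srxn1 were lost in 1 for Hdac1 and in 5 for Hdac2. The difference of Hdac1-deficient minus Hdac2-deficient was -0.61 (SE 0.04, adjusted p = 1.5e-13) for Gpx1, -0.48 (SE 0.03, adjusted p = 4e-13) for Gss and -0.42 (SE 0.03, adjusted p = 1e-11) for Prdx6. It was smaller for Gclc at -0.30, Txn2 at -0.22 and Srxn1 at -0.20, with adjusted p of 1.2e-06, 5.8e-06 and 1.2e-05. All 4 Hdac2-deficient libraries were above all 4 Hdac1-deficient libraries for each of the 6. The arrangement of lower in Hdac1-deficient enteroids and higher in those lacking Hdac2 was seen in 2.4% of the 13851 genes that both comparisons could test, and opposite calls of either kind in 3.74%. Gclc, Gss, Gpx1 and Prdx6 make or use glutathione, and Txn2 and Srxn1 belong to the thioredoxin and peroxiredoxin cycle. The list was chosen for genes of these cycles, and others of them moved otherwise. Gclm, Gpx2, Gpx4 and Ggt1 were higher in both mutants, and Gsr was lower in both.

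**Figure D5:**
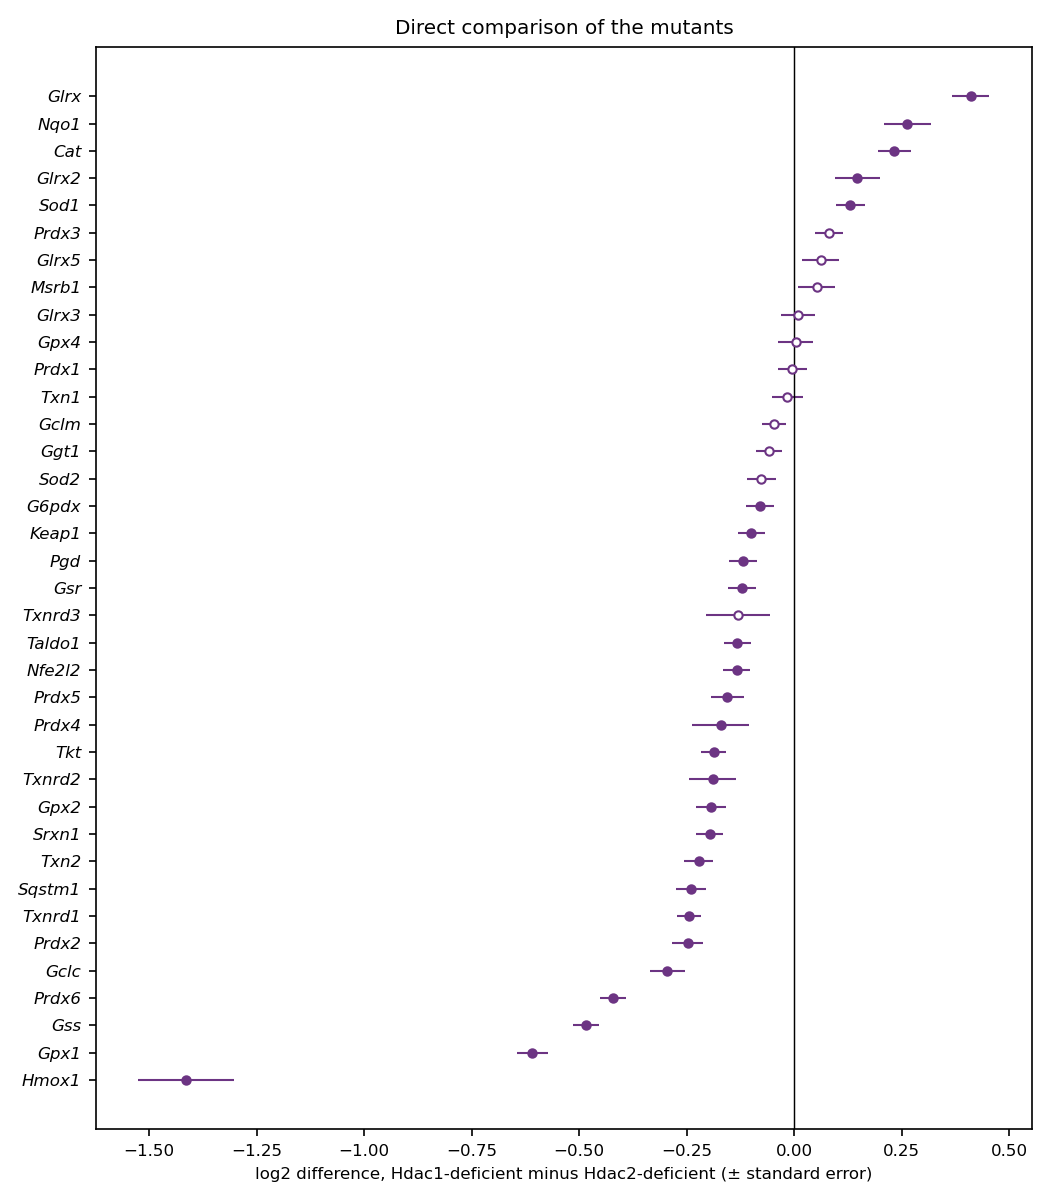
Log2 difference of Hdac1-deficient minus Hdac2-deficient enteroids (horizontal axis, bars are standard errors) for 37 members, sorted, from the fit of 12 libraries; filled points passed an adjusted p of 0.05. The filled points left of 0 run from -0.08 (G6pdx) to -1.41 (Hmox1), and Glrx, Nqo1, Cat, Glrx2 and Sod1 are the filled points to the right; Gpx3, the other member tested, is left out because of its few reads.

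Members that passed higher or lower in both mutants could also differ in degree. Gpx2, Pgd, Nfe2l2 and Sqstm1 rose more in Hdac2-deficient enteroids, with direct differences of -0.19, -0.12, -0.13 and -0.24, and Cat and Glrx rose more in Hdac1-deficient enteroids. Prdx2, Prdx5, Txnrd2, Gsr and Taldo1 were lower still in Hdac1-deficient enteroids, by -0.25, -0.16, -0.19, -0.12 and -0.13. So was Prdx4, by -0.17, the call lost in 9 alternative settings. Txnrd1, with a direct difference of -0.24 (adjusted p = 9.2e-08), and Tkt, with -0.19 (adjusted p = 4.6e-06), had passed against control in the Hdac1 comparison alone and differed between the mutants too. Counting a stricter adjusted p of 0.01 as one setting, the direct call of Glrx2 (0.15) was lost in 5 alternative settings. The 12 members that did not pass were Gpx3, with its few reads, and Txnrd3, Sod2, Ggt1, Gclm, Txn1, Prdx1, Gpx4, Glrx3, Msrb1, Glrx5 and Prdx3, whose differences lay between -0.13 and 0.08 with SEs of 0.03 to 0.07. Prdx3, at an adjusted p of 0.052, passed higher in 8 alternative settings.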

How the data were processed

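Poly(A)-selected RNA of 12 enteroid libraries, 4 per group, was sequenced as paired 100-base reads from a strand-keeping kit. Per the labels, reads were aligned to GRCm38 with STAR 2.4.0f1, and the counting program and its strand setting are not given in the sources used here. The authors deposited 2 tables, control with Hdac1-deficient and control with Hdac2-deficient, which hold raw read counts per gene for each library. No listed gene had a summed count below 10. The tables also hold normalized values (a score here: counts scaled by the authors with 1 factor per library and rounded) and the authors' own log2 fold changes, p-values and q-values, none of which were used. Library totals were 20693200 to 30658628 counts. Intervals cover counting error only, since reads carried no molecular identifiers.

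Counts were tested with edgeR 4.0.16 in R 4.3.3 (TMM, filterByExpr, robust quasi-likelihood F test, Benjamini-Hochberg adjustment over all tested genes). Comparisons with control used 8 libraries each (14246 and 14007 genes tested), and the mutants with each other in a fit of 12 (14510 genes). A gene passed when its adjusted p did not exceed 0.05, and was called past 2-fold if it also changed more than 2-fold. Every adjusted p is two-sided and from edgeR. Standard errors were derived from the fold change and its F value. CPM are on the TMM scale of all 12 libraries. Levels between genes were compared per kilobase of the longest protein-coding transcript (GENCODE M21, which held 18823 of the 18929 genes, 99.4%). The fit was tested on simulated data. Figures were drawn with matplotlib 3.10.9 in Python 3.11.15.

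All 41 members are named by role. Values in every library are given for members that passed with more than 1.5-fold in any comparison and for the member with the highest control level per kilobase of each role. Of 104 other genes of the pathway, those past 2-fold in either mutant were eligible to be named. Slc7a11 is given in every library, which was decided after its values were seen. Slc7a9 and Slc3a1, below 2-fold, are named beside it, and Gstp1, also below 2-fold, beside Gstp2. These choices too were made after the values were seen. Members and lists were chosen with earlier results of these data known. Alternatives were DESeq2 1.42.0, other scalings and filters, a stricter threshold, a replicate block, other sets of libraries in the fit and each library left out in turn.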

Additional observations from a re-analysis of the deposited data

Results flagged for a closer look

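In 8 of 111 groups of 4 libraries, 1 library lay far from the other 3 by Dixon's test at the 95% level, which chance gives in about 1 in 20 groups. Control library 1 was high for Txn2 (174.8 CPM, others 155.6 to 156.9), G6pdx (134.5 CPM, others 128.2 to 128.7) and Nfe2l2 (361.9 CPM, others 353.0 to 353.9). Hdac2-deficient library 1 was high for Txn1 (984.5 CPM, others 923.8 to 928.4) and Nfe2l2 (548.6 CPM, others 515.7 to 520.0), and Hdac1-deficient library 4 was high for Pgd (505.1 CPM, others 472.9 to 477.7). Control library 2 was low for Txnrd2 (26.49 CPM, others 30.3 to 30.7), and control library 4 was low for Txnrd3 (15.99 CPM, the others at least 18.6).

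For 6 members the effects against control had opposite signs in the mutants and the difference between them passed when tested directly with edgeR. Opposite effects against shared controls make that pass likely. The log2 difference of Hdac1-deficient minus Hdac2-deficient was -0.6092 for Gpx1, -0.4838 for Gss, -0.4221 for Prdx6, -0.2954 for Gclc, -0.2227 for Txn2 and -0.1969 for Srxn1.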

How the results depend on the processing

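Of 2055 values of single members under alternative settings, 1975 kept their side of the threshold, 22 passed newly, 58 no longer passed, and no called value changed sign. Of the 112 single-member results, 18 changed side in any setting and 94 in none. Against control, 1 member was called past 2-fold higher in Hdac1-deficient enteroids, and this became 3 with no filter on low counts (Gpx3 and Gpx8 added) and 2 with all 12 libraries in 1 fit (Gpx3 added). It was 1 to 2 when each library was left out in turn (Gpx3 entering without any 1 control library or without Hdac1-deficient library 4), because Gpx3 then entered the test, and 2 to 3 in place of 2 for Hdac2. Leaving out each library gave 12 to 14 members higher and 18 to 19 lower for Hdac1, 16 to 18 and 11 to 13 for Hdac2, and 4 to 6 and 19 to 21 in the direct comparison. With the replicate block, 12 members were higher and 19 lower for Hdac1, 18 and 12 for Hdac2, and 5 and 20 in the direct comparison. Deviations of same-numbered libraries correlated at -0.045 to 0.091, so the numbers were not taken to pair the libraries. Depth limited Sod3, Gpx3 and Gpx8, where 3 counts correspond to 0.0979 to 0.145 CPM.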
